A study of Rattus norvegicus with 12 samples.

Results

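The genes described here copy DNA and start S phase in cultured rat retinal cells. They are 56 genes chosen by name and role: 19 that license and fire replication origins, 22 that work at the replication fork or assemble chromatin behind it, 5 that make or clear deoxynucleotides, and 10 E2F factors, cyclins and other genes of the G1/S step. The count tables of all 12 libraries held 53 of the 56, among 17315 genes in all, and 52 had enough reads to be tested, among 11321. Levels of Chaf1a, E2f2 and E2f8 were not analysed here, though the promoter of Chaf1a was among those searched. Hells was counted but not tested.

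RNA sequencing of polyadenylated RNA was used to compare 3 kinds of Sprague-Dawley rat culture, described as Müller cells, the main glia of the retina. SIRMu-1 is a line from pups of postnatal day 2 to 4 that became immortal without an added gene, and 5 cultures were read, 1 at passage 6, 3 at passage 11 and 1 at passage 20. The rMC-1 line derives from adult animals and carries SV40 large T antigen, the immortalizing agent and a viral protein that binds RB family proteins, and 3 cultures were read at passage 23 or 26. Primary MC, the primary cultures, came from pups of postnatal day 2 to 4, and 4 cultures were read at passage 3 or 4. Medium held 25 mM glucose in every group, with 20% serum for SIRMu-1 and primary cultures and 10% for rMC-1. Gentamicin at 87 mg/L and amphotericin B at 2.2 mg/L were given to SIRMu-1 replicates 3 and 5 and to every primary culture, and to no rMC-1 culture. All libraries of a line are cultures of that 1 line. Passage and the route to immortality differ along with the groups, and age and serum differ along with rMC-1 against either other group. The drugs differ wholly along with rMC-1 against primary cultures, and in part along with the other 2 comparisons. The parts of what differs along with the groups compared cannot be told apart.

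Replication begins in G1, when the origin recognition complex, Cdc6 and Cdt1 load the ring of Mcm2 to Mcm7 onto DNA. In S phase the Dbf4-dependent kinase Cdc7 and cyclin-dependent kinases turn that ring into a moving helicase by adding Cdc45 and GINS, and polymerases, the clamp Pcna and its loaders then copy both strands. Most of these genes are known targets of E2F transcription factors, which RB proteins hold in check until cyclin-dependent kinases inactivate RB late in G1. Müller glia of the adult mammalian retina seldom divide, whereas cells in culture do so in serum.

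Reads assigned to genes came to 26349346 to 36730443 in SIRMu-1 libraries, 27351014 to 38125630 in rMC-1 and 22582345 to 29812705 in primary cultures. The label of Müller cells held only in part, since Aqp4, the water channel of their endfeet, was at 0 counts in both lines and at 2 counts over the 4 primary libraries. Of 12 Müller glia markers, 4 were at 0 in SIRMu-1 (Aqp4, Kcnj10, Car2 and Slc1a2), 3 in rMC-1 (Aqp4, Car2 and Abca8a) and 0 in primary cultures. Their summed level was 3443 to 4473 CPM in SIRMu-1, 1446 to 1532 in rMC-1 and 7238 to 8740 in primary cultures. Most of it was Vim, which fibroblasts express too, at 497556 counts over the SIRMu-1 libraries, 166403 over rMC-1 and 599601 over primary cultures. Rlbp1 and Slc1a3 alone had the most counts in rMC-1. They had 22 and 3289 counts over the SIRMu-1 libraries, 109 and 6628 over rMC-1 and 6 and 3326 over primary cultures. Sox9 had the most in SIRMu-1, at 10105 counts, with 4 in rMC-1 and 5009 in primary cultures. The other genes of the list had the most in primary cultures. Among them, Dkk3 had 53924 counts over SIRMu-1, 110 over rMC-1 and 120658 over primary cultures, and Glul 7931, 6619 and 13821. All these counts are sums over 5 SIRMu-1, 3 rMC-1 and 4 primary libraries of unlike depth, not levels per library. A larger sum in SIRMu-1 than in rMC-1, as for Glul, therefore does not show a higher level. The summed level of 12 fibroblast and matrix genes was 41803 to 64687 CPM in SIRMu-1, 3876 to 5495 in rMC-1 and 32086 to 139364 in primary cultures. Pericyte and smooth muscle markers summed to 6239 to 15367 CPM in SIRMu-1, 1374 to 3550 in rMC-1 and 7491 to 13455 in primary cultures, and endothelial markers to 181 to 456 CPM in SIRMu-1, 4.95 to 8.72 in rMC-1 and 12.4 to 51.5 in primary cultures. Retinal neuron markers summed to 7.90 to 13.8 CPM in SIRMu-1, 148 to 191 in rMC-1 and 14.8 to 215 in primary cultures, and microglia and pigment epithelium markers were under 30 CPM in every library. The part of such differences between cells in the results that follow was not tested. CPM are the read counts of a gene relative to all reads in genes, scaled by TMM factors so that most genes sit at a like level across libraries.

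The replication genes stood at 3 levels, highest in rMC-1, lower in SIRMu-1 and lowest in primary cultures. Their median over the 52 tested genes was 24.9, 11.4, 20.4, 28.1 and 26.3 CPM in SIRMu-1 replicates 1 to 5. It was 91.4, 101.9 and 99.1 CPM in the rMC-1 libraries and 6.51, 5.99, 5.72 and 5.86 CPM in the primary cultures. SIRMu-1 replicate 2 was the lowest of its line, yet no SIRMu-1 median reached that of an rMC-1 library or fell to that of a primary culture. In RNA from whole cultures, a larger share of cells in cycle and more RNA of a gene per cell cannot be told apart.

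**Figure D1:**
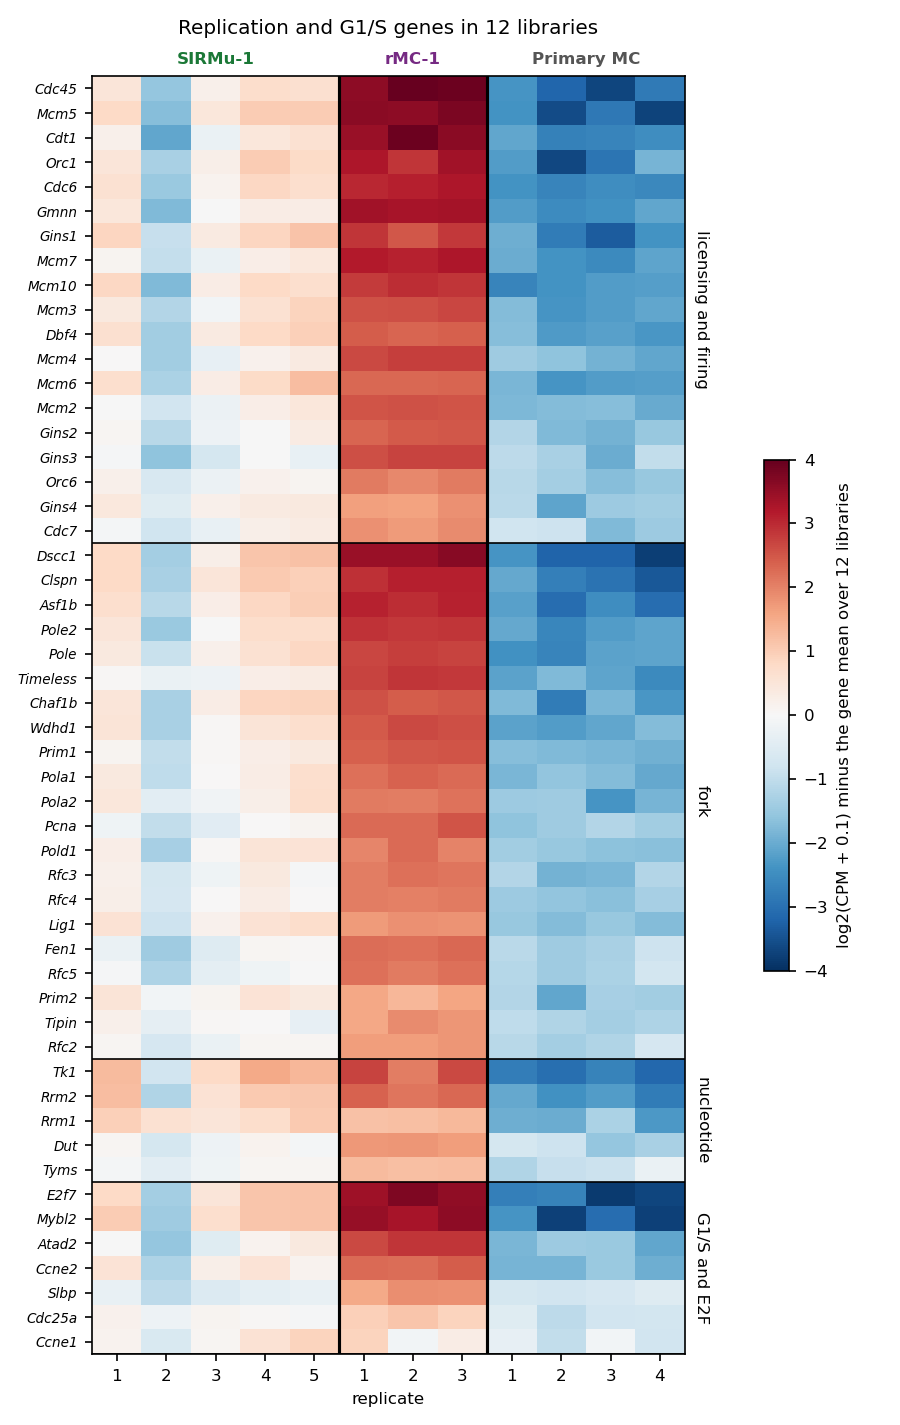
Heat map of the 52 tested replication and G1/S genes (rows, by role) in the 12 libraries (columns: SIRMu-1, rMC-1, primary cultures), coloured by log2 (CPM + 0.1) less the mean of the gene over all libraries. The rMC-1 columns are high, the primary columns low, and SIRMu-1 replicate 2 is lower than the other 4 SIRMu-1 columns in most rows.

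Against primary cultures, 50 of the 52 genes were higher in SIRMu-1 and 0 were lower, where 21.7% of all tested genes were called higher, 24.4% lower and 46.1% in either direction. Calls rest on edgeR's quasi-likelihood test at an adjusted p under 0.05, with Benjamini-Hochberg adjustment over the 11321 genes. The median log2 fold change of the 52 was 1.97, with a range of 0.17 to 4.02, and that of all tested genes was -0.02. Ccne1 and Slbp did not pass. In rMC-1 against primary cultures, all 52 were higher, where 31.9% of tested genes were called higher, 38.9% lower and 70.8% in either direction. Their median log2 fold change was 4.39, with a range of 0.93 to 6.95, against -0.15 over all tested genes. With library totals in place of TMM factors the all-gene median in this comparison was 0.32, and 61.9% instead of 45.1% of calls were higher, while the 52 genes were all still called higher.

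Between the lines, 50 of the 52 genes were lower in SIRMu-1 than in rMC-1 and 0 were higher, where 30.5% of tested genes were called lower, 32.7% higher and 63.2% in either direction. The median log2 difference, SIRMu-1 over rMC-1, was -2.32, with a range of -3.65 to -0.12, against 0.03 over all tested genes. With library totals that all-gene median was -0.40 and 30.8% instead of 51.7% of calls were higher in SIRMu-1, and 51 of the 52 genes were called lower. Rrm1 and Ccne1 did not pass in the fit with TMM factors. Taking the 3 comparisons, which share their libraries, 49 of 52 genes were called in all of them in the order rMC-1, SIRMu-1, primary cultures, against 9.0% of all tested genes. Every SIRMu-1 library lay above every primary culture in 43 of 52 genes (17.2% of all tested genes), every rMC-1 library above every primary culture in 51 (32.7%), and every SIRMu-1 library below every rMC-1 library in 51 (31.0%). In 43 of 52 every rMC-1 library lay above every SIRMu-1 library and every SIRMu-1 library above every primary culture, which held for 7.39% of all tested genes. The 9 exceptions were Gins3, Rfc2, Rfc5, Fen1, Tyms, Dut, Ccne1, Slbp and Atad2, and in all of them a SIRMu-1 library lay within or under the primary range.

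**Figure D2:**
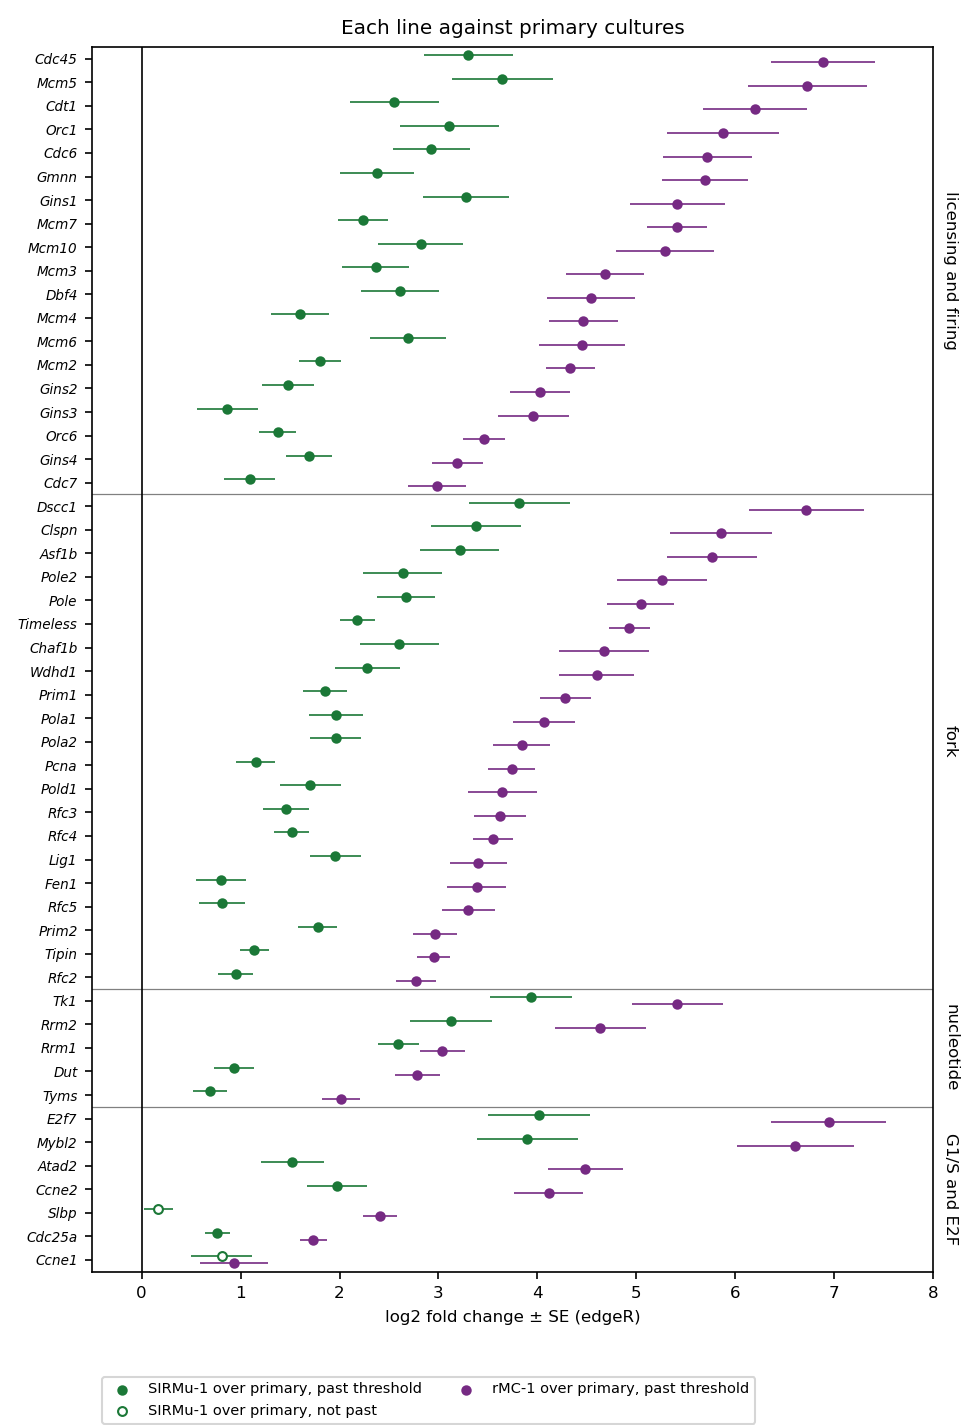
Log2 fold change against primary cultures of each of the 52 tested genes, by role, in SIRMu-1 and in rMC-1, with bars of 1 standard error. The rMC-1 values run from 0.93 to 6.95 and the SIRMu-1 values from 0.17 to 4.02, with Ccne1 at 0.81 in SIRMu-1 and 0.93 in rMC-1.

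RefSeq promoters of rat assembly GRCr8 were searched for the words that E2F factors are known to bind, because E2F is the shared regulator of this pathway. The table matched 46 of the 56 genes and gives 250 bases before and 50 after each start. The words searched on both strands were TTTCCCGC, TTTGGCGC, TTTCGCGC and TTTGCCGC, which can overlap each other where a word and its reverse meet. At least 1 stood in 21 of 46 promoters (45.7%), against 338 of 8580 promoters of tested genes (3.94%) and 618 of 27457 promoters in the table (2.25%). Of the 21, 8 held 2 or more words. The share was 9 of 15 for licensing genes, 8 of 21 for fork genes, 1 of 4 for nucleotide genes and 3 of 6 for the E2F and cyclin genes. CCAAT, the box bound by NF-Y, stood in 23 of the 46 promoters and 37.3% of those of tested genes (37.7% of all in the table), and TTTGAA, the core of the CHR element of late cell cycle genes, in 15.2% and 11.1% (18.1% of all in the table). The 20 tested genes with an E2F word had a median log2 fold change of 2.21 in SIRMu-1 and 4.57 in rMC-1 against primary cultures, and the 24 without one had 1.82 and 3.79, with overlapping ranges. A word is a match of letters, not a site shown to be bound.

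**Figure D3:**
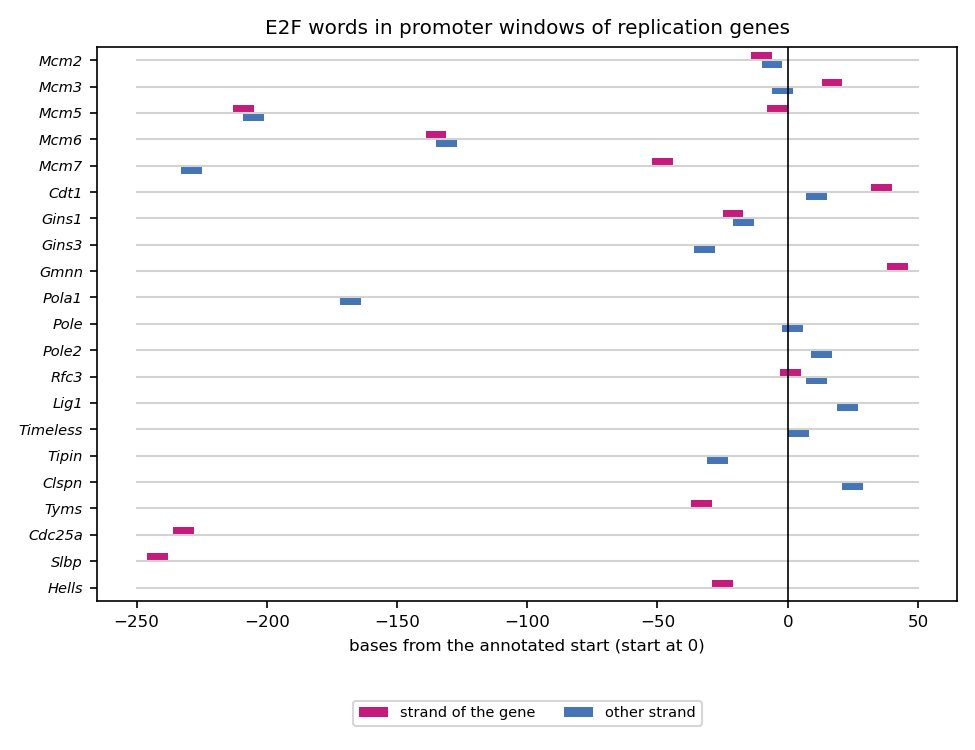
Positions of the E2F words in the 21 promoters that hold at least 1, in bases from the annotated start, with colour for the strand of each word. Of 30 words, 21 lie before the start, 13 of them within 100 bases of it.

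The 150 bases before the start are printed for 7 genes that the results turn on, with E2F words in capitals. Mcm5 and Gins1 are among the most changed licensing genes in SIRMu-1, Gins3 has the smallest SIRMu-1 change of that role, Mcm6 has the largest drug difference, Tyms is the least changed nucleotide gene, and Rrm1 and Ccne1 did not pass the test between the lines. They lie at chr19:13488663-13488812 (plus strand) for Mcm5, chr13:42404353-42404502 (minus strand) for Mcm6, chr3:160184770-160184919 (plus strand) for Gins1 and chr19:9434680-9434829 (minus strand) for Gins3. The others lie at chr9:120776084-120776233 (minus strand) for Tyms, chr1:166235754-166235903 (plus strand) for Rrm1 and chr1:99927910-99928059 (minus strand) for Ccne1, all on GRCr8 and written in the direction of the gene.
Mcm5: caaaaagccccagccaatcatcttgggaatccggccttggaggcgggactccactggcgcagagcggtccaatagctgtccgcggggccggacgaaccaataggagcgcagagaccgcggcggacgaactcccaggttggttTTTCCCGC
Mcm6: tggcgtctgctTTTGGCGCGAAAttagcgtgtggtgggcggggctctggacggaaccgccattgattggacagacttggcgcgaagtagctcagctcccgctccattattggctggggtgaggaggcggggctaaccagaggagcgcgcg
Gins1: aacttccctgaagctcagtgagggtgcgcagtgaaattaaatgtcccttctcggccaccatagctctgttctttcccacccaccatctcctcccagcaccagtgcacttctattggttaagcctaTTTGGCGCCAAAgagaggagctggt
Gins3: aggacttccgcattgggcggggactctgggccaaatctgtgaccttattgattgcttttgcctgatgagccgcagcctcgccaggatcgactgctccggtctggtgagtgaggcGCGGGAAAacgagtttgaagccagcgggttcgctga
Tyms: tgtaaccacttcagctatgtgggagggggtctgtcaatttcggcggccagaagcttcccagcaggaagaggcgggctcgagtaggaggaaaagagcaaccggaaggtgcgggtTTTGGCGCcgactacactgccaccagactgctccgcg
Rrm1: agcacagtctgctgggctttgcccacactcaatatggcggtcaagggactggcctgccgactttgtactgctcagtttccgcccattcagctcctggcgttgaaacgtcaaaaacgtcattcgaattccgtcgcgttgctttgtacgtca
Ccne1: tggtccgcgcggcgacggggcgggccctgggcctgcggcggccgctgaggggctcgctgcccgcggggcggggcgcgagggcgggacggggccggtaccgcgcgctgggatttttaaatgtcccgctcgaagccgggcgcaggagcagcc
In Gins1 a word on the gene's strand, at position -25, and a word on the other strand, at -21, overlap into a palindrome. Mcm6 holds an overlapping pair from -139 that is not a palindrome, while the words of Mcm5 and Tyms start at -8 and -37 and that of Gins3, on the other strand, at -36. Mcm5 holds 2 more words further out, at -213 and -209. The windows of Rrm1 and Ccne1 hold none of the words.

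The licensing and firing genes were called in all 3 comparisons, 19 of 19 each time. Their median log2 fold change was 2.38 in SIRMu-1 and 4.69 in rMC-1 against primary cultures, and -2.55 in SIRMu-1 over rMC-1. Mcm5, a subunit of the helicase ring, had 61.96, 10.9, 48.8, 73.2 and 72.7 CPM in the SIRMu-1 libraries, 441, 431 and 492 CPM in rMC-1 and 6.70, 2.88, 4.83 and 2.69 CPM in the primary cultures. Its groups did not overlap, and replicate 2 of SIRMu-1 was by far the lowest of that line. Its log2 fold change was 3.64 ± 0.51 in SIRMu-1 (edgeR adjusted p = 0.000195) and 6.73 ± 0.60 in rMC-1 (edgeR adjusted p = 2.0e-06), a 12.5-fold and a 106-fold level, and -3.09 ± 0.47 in SIRMu-1 over rMC-1. Cdc45, which joins the ring when an origin fires, had 14.5, 3.43, 11.8, 16.98 and 16.1 CPM in the SIRMu-1 libraries, 123, 172 and 157 CPM in rMC-1 and 1.93, 1.05, 0.715 and 1.37 CPM in the primary cultures. Again each rMC-1 library lay above each SIRMu-1 library and each of those above the primary cultures. The log2 fold change of this gene was 3.30 ± 0.45 in SIRMu-1 and 6.89 ± 0.53 in rMC-1, the largest of its role in rMC-1.

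Cdt1, the loading factor that geminin holds back after S phase begins, had 11.2, 2.27, 8.22, 13.5 and 14.98 CPM in the SIRMu-1 libraries, 109, 148 and 120.1 CPM in rMC-1 and 2.25, 1.42, 1.48 and 1.67 CPM in the primary cultures. The primary cultures lay close together and SIRMu-1 replicate 2 came nearest to them. Its log2 fold change was 2.55 ± 0.45 in SIRMu-1 and 6.20 ± 0.53 in rMC-1, and -3.65 ± 0.43 in SIRMu-1 over rMC-1, the widest gap between the lines among the 52. Gins1, a GINS subunit, had 9.14, 2.58, 6.48, 9.12 and 11.1 CPM in the SIRMu-1 libraries, 36.6, 28.7 and 36.2 CPM in rMC-1 and 1.22, 0.636, 0.402 and 0.881 CPM in the primary cultures. Its primary values rest on 77 counts over 4 libraries, and its log2 fold change was 3.28 ± 0.43 in SIRMu-1 and 5.42 ± 0.48 in rMC-1. Gins3, of the same complex, had 8.14, 2.67, 5.08, 8.23 and 6.86 CPM in the SIRMu-1 libraries, 50.02, 54.4 and 54.5 CPM in rMC-1 and 4.02, 3.33, 2.06 and 4.19 CPM in the primary cultures. SIRMu-1 and primary libraries overlapped, with SIRMu-1 replicate 2 below 3 of the 4 primary cultures. The log2 fold change of this gene was 0.86 ± 0.31 in SIRMu-1 (edgeR adjusted p = 0.0375), the smallest of its role, against 3.96 ± 0.36 in rMC-1. The SIRMu-1 call of Gins3 was lost in 15 of 22 alternatives, among them limma on the authors' log2 CPM (log2 fold change 0.79) and a fit of the 2 groups alone (0.84).

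Cdc7, the kinase that fires origins, had 10.1, 6.17, 8.59, 12.5 and 13.5 CPM in the SIRMu-1 libraries, 38.5, 35.2 and 39.6 CPM in rMC-1 and 6.15, 5.99, 3.09 and 3.83 CPM in the primary cultures. All SIRMu-1 values exceeded the primary ones, the lowest by a narrow margin, and the log2 fold change was 1.09 ± 0.26 in SIRMu-1 (edgeR adjusted p = 0.00516) and 2.98 ± 0.29 in rMC-1, the smallest of its role there. Dbf4, its activating partner, had 13.2, 3.12, 10.7, 14.5 and 16.1 CPM in the SIRMu-1 libraries, 44.8, 42.3 and 44.4 CPM in rMC-1 and 2.48, 1.65, 1.79 and 1.59 CPM in the primary cultures. Its groups did not overlap, and its log2 fold change was 2.61 ± 0.39 in SIRMu-1 and 4.54 ± 0.44 in rMC-1. Mcm6 had 87.5, 23.1, 68.7, 94.5 and 129 CPM in the SIRMu-1 libraries, 272, 271 and 278 CPM in rMC-1 and 15.5, 10.8, 11.8 and 11.9 CPM in the primary cultures. Its SIRMu-1 libraries spread widely, with replicate 5 highest, while the rMC-1 libraries lay close together. Its log2 fold change was 2.69 ± 0.38 in SIRMu-1 and 4.45 ± 0.43 in rMC-1. The other 11 licensing genes ranged from 1.37 (Orc6) to 3.11 (Orc1) in SIRMu-1 and from 3.19 (Gins4) to 5.88 (Orc1) in rMC-1 on the log2 scale. Orc1 encodes the origin recognition subunit that cycles with the cell cycle and rests on 66 primary counts, and Gmnn, the inhibitor of Cdt1, rose too, by 2.38 ± 0.37 in SIRMu-1 and 5.69 ± 0.44 in rMC-1.

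**Figure D4:**
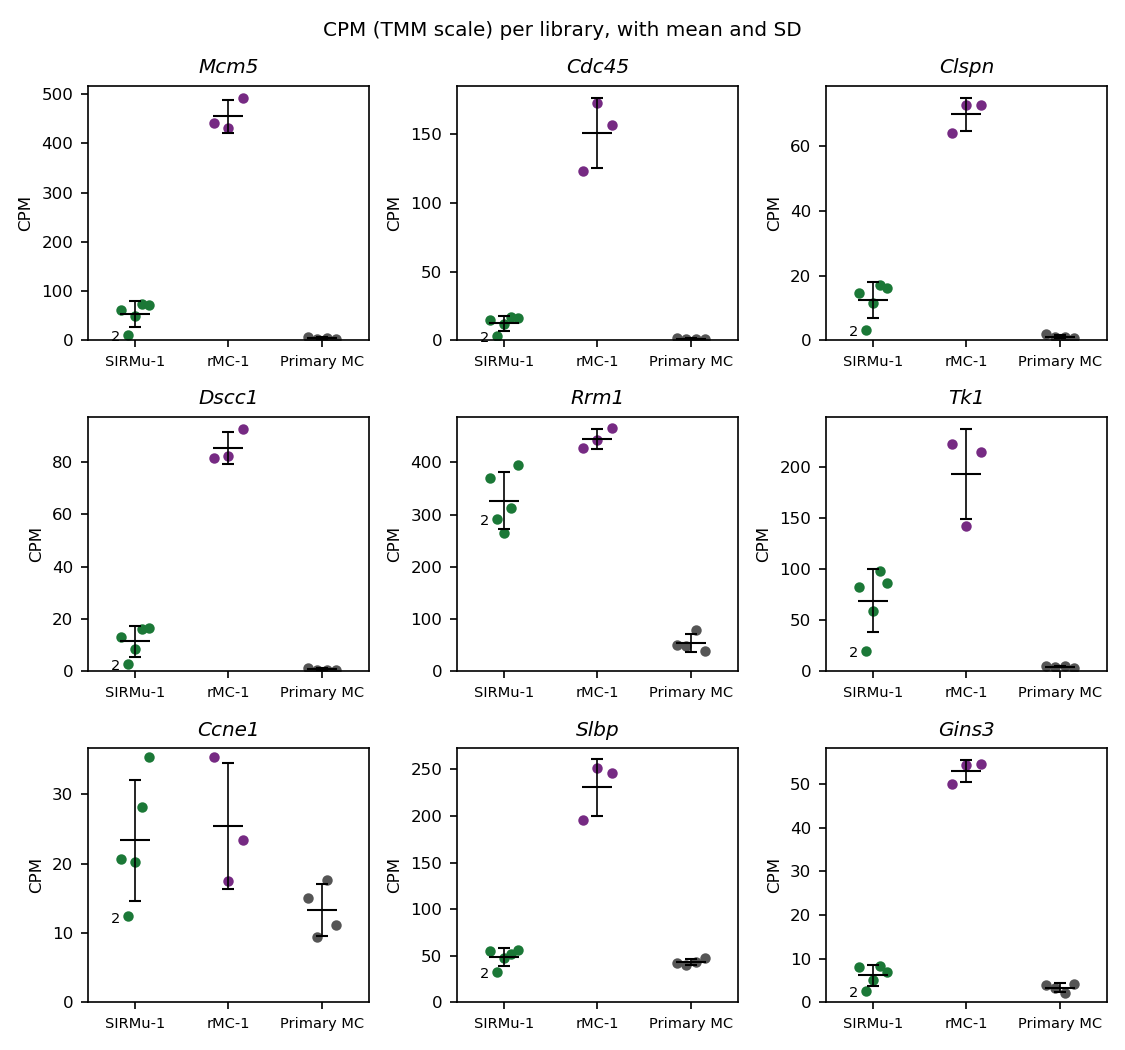
Level in CPM (linear axis from 0, one panel per gene) in each SIRMu-1, rMC-1 and primary library, with the mean and SD of each group, for genes that show the patterns in the text. SIRMu-1 replicate 2 carries the digit 2. Mcm5, Cdc45, Clspn, Dscc1, Rrm1 and Tk1 separate the 3 groups, Slbp and Gins3 are highest in rMC-1, and the groups of Ccne1 overlap.

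A list of 15 other licensing and firing genes held 10 tested genes, of which 8 were higher in SIRMu-1 and 0 lower. In rMC-1, 8 were higher and 1 lower. Recql4, a helicase-like firing factor, led it in both lines, with log2 fold changes of 2.10 ± 0.32 in SIRMu-1 and 4.59 ± 0.37 in rMC-1. Mcm8, a relative of the helicase ring subunits, followed in SIRMu-1 and Mtbp, a partner of the firing factor treslin, in rMC-1, with Mcm8 at 1.48 ± 0.13 in SIRMu-1 and 3.77 ± 0.15 in rMC-1 and Mtbp at 1.44 ± 0.31 in SIRMu-1 and 4.40 ± 0.36 in rMC-1. Orc3 had 31.05, 35.2, 31.3, 27.2 and 24.99 CPM in the SIRMu-1 libraries, 17.1, 21.8 and 16.5 CPM in rMC-1 and 23.9, 28.3, 28.9 and 22.04 CPM in the primary cultures, and was lower in rMC-1 (-0.48 ± 0.16, edgeR adjusted p = 0.0155) and not past the test in SIRMu-1 (0.22 ± 0.14). Orc4 passed in neither line, at 0.22 ± 0.12 in SIRMu-1 and -0.26 ± 0.14 in rMC-1. Subunits of the origin recognition complex thus spanned 0.22 (Orc3) to 3.11 (Orc1) in SIRMu-1 and -0.48 to 5.88 in rMC-1, on the log2 scale.

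At the fork, 21 of 21 tested genes were called in each comparison, with median log2 fold changes of 1.96 in SIRMu-1 and 3.84 in rMC-1 against primary cultures and -2.32 in SIRMu-1 over rMC-1. Dscc1, part of the clamp loader that aids sister chromatid cohesion, had 12.9, 2.77, 8.67, 16 and 16.7 CPM in the SIRMu-1 libraries, 81.5, 82.1 and 92.4 CPM in rMC-1 and 1.34, 0.711, 0.715 and 0.441 CPM in the primary cultures. The groups were apart by wide gaps except for SIRMu-1 replicate 2, and the primary value rests on 79 counts. The log2 fold change of this gene was 3.82 ± 0.51 in SIRMu-1 (edgeR adjusted p = 0.000148) and 6.72 ± 0.58 in rMC-1 (edgeR adjusted p = 1.5e-06), the largest of its role in both lines. Clspn, the checkpoint adaptor claspin at the fork, had 14.6, 3.30, 11.6, 17.2 and 16.1 CPM in the SIRMu-1 libraries, 64.1, 72.8 and 72.7 CPM in rMC-1 and 1.93, 1.16, 0.984 and 0.705 CPM in the primary cultures. Its log2 fold change was 3.38 ± 0.46 in SIRMu-1 and 5.86 ± 0.52 in rMC-1. Asf1b, a histone chaperone of dividing cells, had 14.5, 4.12, 10.9, 16.2 and 18.02 CPM in the SIRMu-1 libraries, 76.6, 70.3 and 76.9 CPM in rMC-1 and 1.93, 1.01, 1.52 and 1.01 CPM in the primary cultures. It followed with 3.22 ± 0.40 in SIRMu-1 and 5.76 ± 0.45 in rMC-1.

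The fork genes with the smallest change were Fen1 in SIRMu-1 and Rfc2 in rMC-1. Rfc2, of the clamp loader, had 26.7, 15.6, 20.7, 26.3 and 26.4 CPM in the SIRMu-1 libraries, 80.6, 79.8 and 85.9 CPM in rMC-1 and 11.6, 9.84, 10.9 and 15.6 CPM in the primary cultures. Its lowest SIRMu-1 library was level with its highest primary library, and its log2 fold change was 0.95 ± 0.18 in SIRMu-1 (edgeR adjusted p = 0.00132) and 2.77 ± 0.20 in rMC-1. Fen1, which trims Okazaki fragments, had 23.2, 10.4, 19.6, 29.5 and 28.9 CPM in the SIRMu-1 libraries, 132, 129.9 and 138 CPM in rMC-1 and 13.3, 10.5, 11.5 and 15.8 CPM in the primary cultures. SIRMu-1 replicate 2 lay below every primary library, and the log2 fold change was 0.80 ± 0.26 in SIRMu-1 (edgeR adjusted p = 0.0233) and 3.39 ± 0.30 in rMC-1. The SIRMu-1 call of Fen1 was lost in the fit of the 2 groups alone (0.78), with libraries of 1 file-name code summed (0.85), and without primary replicate 2 (0.71) or 3 (0.75) or SIRMu-1 replicate 4 (0.68) or 5 (0.67). The other 16 fork genes, the polymerases, primase, Pcna and Lig1 among them, ranged from 0.81 (Rfc5) to 2.67 (Pole) in SIRMu-1 and from 2.95 (Tipin) to 5.26 (Pole2, on 73 primary counts) in rMC-1. Tipin and its partner Timeless, which steady a paused fork, had log2 fold changes of 1.14 ± 0.15 and 2.18 ± 0.18 in SIRMu-1 and 2.95 ± 0.17 and 4.93 ± 0.21 in rMC-1.

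Of 19 other fork and chromatin assembly genes, 17 were tested, and 14 were higher in SIRMu-1 and 0 lower. In rMC-1, 16 were higher and 1 lower. Top2a, the topoisomerase of dividing cells, led with 3.94 ± 0.50 in SIRMu-1 and 6.35 ± 0.57 in rMC-1. Pole3, Rfc1 and Top1 did not pass in SIRMu-1, at -0.02 ± 0.18, -0.01 ± 0.11 and 0.02 ± 0.10, and in rMC-1 their log2 fold changes were 0.66 ± 0.20, 0.40 ± 0.13 and 0.35 ± 0.12, all called. Pold4, the small subunit of DNA polymerase delta, went against the list in rMC-1, with 34.4, 45.9, 34.6, 31.4 and 33.6 CPM in the SIRMu-1 libraries, 9.66, 13.6 and 11.5 CPM in rMC-1 and 26.3, 23.4, 26.7 and 20.1 CPM in the primary cultures. The rMC-1 values lay below all others, and the log2 fold change was -1.06 ± 0.17 in rMC-1 (edgeR adjusted p = 0.000151) and 0.58 ± 0.14 in SIRMu-1.

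**Figure D5:**
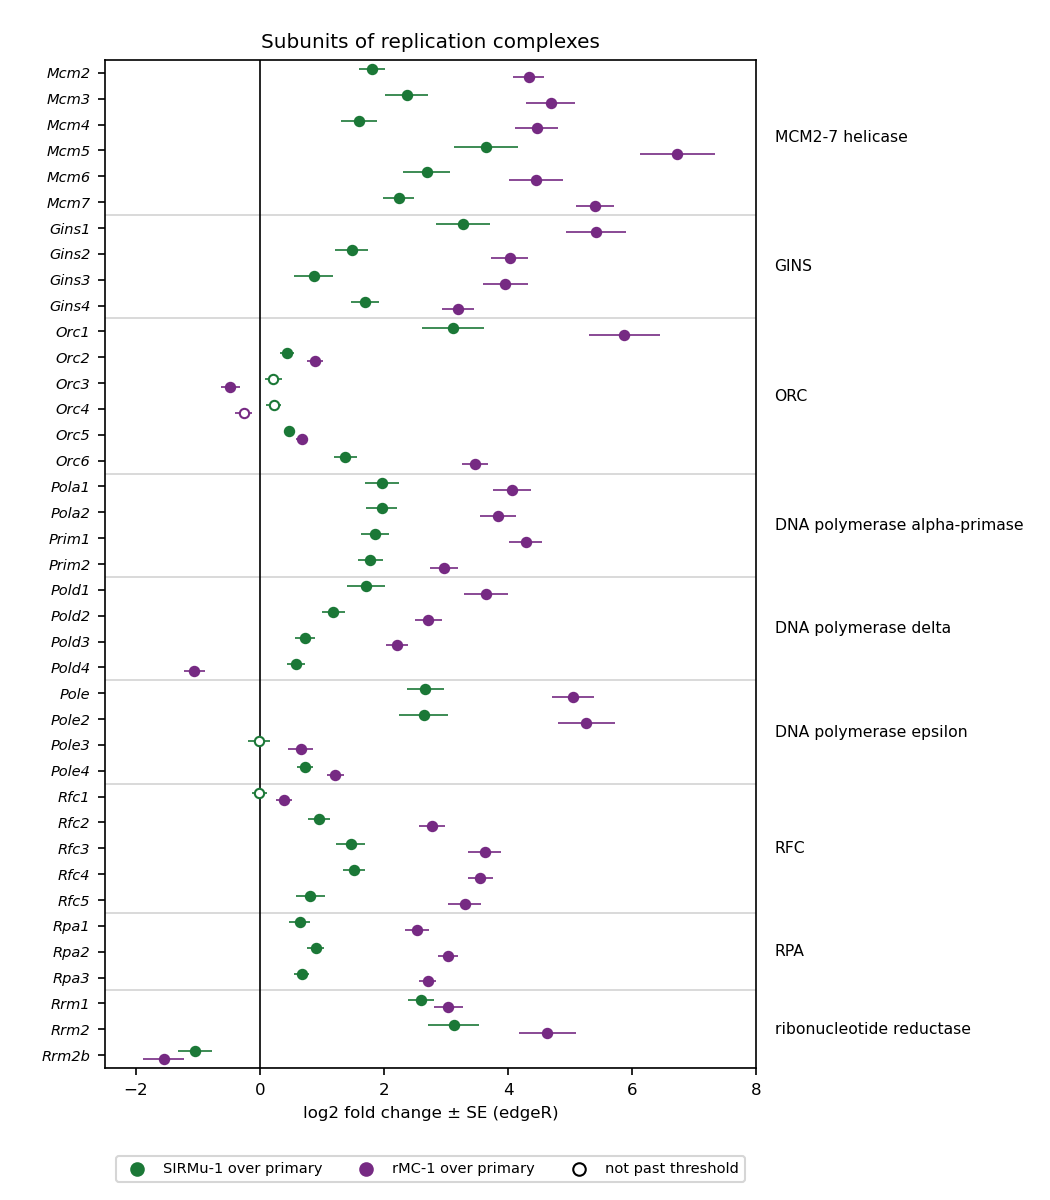
Log2 fold change against primary cultures of every tested subunit of 9 replication complexes, listed members and others, in SIRMu-1 and in rMC-1, with bars of 1 standard error. Subunits of DNA polymerase alpha-primase and of RPA lie close together in SIRMu-1, whereas the origin recognition complex, DNA polymerase delta and ribonucleotide reductase each hold a subunit below 0 in rMC-1.

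Within complexes the spread of subunits differed. The 4 subunits of DNA polymerase alpha-primase lay between 1.78 and 1.97 in SIRMu-1 and between 2.96 and 4.28 in rMC-1, on the log2 scale against primary cultures. The 3 subunits of RPA, the single-strand binding complex, lay between 0.64 and 0.90 in SIRMu-1 and between 2.54 and 3.03 in rMC-1. The 6 subunits of the helicase ring spanned 1.60 to 3.64 in SIRMu-1 and 4.33 to 6.73 in rMC-1, and the 4 of GINS 0.86 to 3.28 and 3.19 to 5.42. These are differences between groups for each subunit, not amounts of subunits relative to each other.

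All 5 nucleotide genes were higher in both lines than in primary cultures, with median log2 fold changes of 2.60 in SIRMu-1 and 3.04 in rMC-1, and 4 of 5 were lower in SIRMu-1 than in rMC-1. Tk1, the thymidine kinase of S phase, had 82.7, 20.04, 59.2, 97.95 and 86.01 CPM in the SIRMu-1 libraries, 223, 142 and 214 CPM in rMC-1 and 4.93, 4.15, 5.23 and 3.79 CPM in the primary cultures. Its groups did not overlap, and replicate 2 was again the lowest SIRMu-1 library. The log2 fold change of this gene was 3.93 ± 0.41 in SIRMu-1 and 5.41 ± 0.46 in rMC-1, with -1.48 ± 0.37 in SIRMu-1 over rMC-1 (edgeR adjusted p = 0.00434). Rrm2, the small subunit of ribonucleotide reductase made in S phase, had 62.6, 11.5, 39.96, 55.3 and 55.9 CPM in the SIRMu-1 libraries, 137, 118 and 131 CPM in rMC-1 and 6.39, 4.90, 5.59 and 3.75 CPM in the primary cultures. Its groups did not overlap, and its log2 fold change was 3.12 ± 0.41 in SIRMu-1 and 4.64 ± 0.46 in rMC-1.

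Rrm1, the large subunit of the same enzyme, had 371, 292, 265, 313 and 394 CPM in the SIRMu-1 libraries, 427, 442 and 466 CPM in rMC-1 and 49.7, 48.3, 79.9 and 38.6 CPM in the primary cultures. It was the only one of the 52 in which SIRMu-1 replicate 2 was not the lowest of its line. Its log2 fold change was 2.60 ± 0.21 in SIRMu-1 and 3.04 ± 0.23 in rMC-1, and -0.44 ± 0.21 in SIRMu-1 over rMC-1 (edgeR adjusted p = 0.0793), although every SIRMu-1 library lay below every rMC-1 library. That difference passed the test with library totals (-0.88), in the fit of the 2 groups alone (-0.44), and when primary replicate 3 (-0.44) or SIRMu-1 replicate 5 (-0.61) was left out. Tyms, which makes thymidylate, had 34.2, 26.9, 31.7, 38.02 and 38.1 CPM in the SIRMu-1 libraries, 86.8, 82.99 and 84.4 CPM in rMC-1 and 15.7, 18.9, 19.6 and 29.7 CPM in the primary cultures. Primary replicate 4 lay within the SIRMu-1 range, and the log2 fold change was 0.69 ± 0.17 in SIRMu-1 (edgeR adjusted p = 0.00695) and 2.01 ± 0.19 in rMC-1, the smallest of its role in both. With libraries of 1 file-name code summed, the SIRMu-1 value of Tyms was 0.65 and not past the test. Dut, which clears dUTP, had log2 fold changes of 0.93 ± 0.20 in SIRMu-1 and 2.79 ± 0.23 in rMC-1.

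Of 12 other nucleotide genes, all tested, 7 were higher and 1 lower in SIRMu-1, and 9 were higher and 1 lower in rMC-1. The lower one was Rrm2b in both, the p53-inducible alternative to Rrm2, with 7.11, 5.63, 5.49, 5.07 and 2.77 CPM in the SIRMu-1 libraries, 3.67, 4.47 and 2.92 CPM in rMC-1 and 8.56, 12.01, 7.87 and 14.8 CPM in the primary cultures. No library of either line reached the lowest primary culture, and its log2 fold change was -1.05 ± 0.28 in SIRMu-1 (edgeR adjusted p = 0.00903) and -1.55 ± 0.33 in rMC-1 (edgeR adjusted p = 0.00128). Samhd1, which breaks down deoxynucleotides, was 2.77 ± 0.33 in rMC-1, called, and 0.19 ± 0.29 in SIRMu-1, not past the test. Tk2, the mitochondrial thymidine kinase, and Nme1 passed in neither line, with Tk2 at 0.11 ± 0.16 in SIRMu-1 and -0.23 ± 0.18 in rMC-1 and Nme1 at 0.09 ± 0.26 in SIRMu-1 and -0.54 ± 0.30 in rMC-1.

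Of the 10 E2F factors, cyclins and other G1/S genes, 7 were tested. In SIRMu-1 5 of them were higher and in rMC-1 all 7, with median log2 fold changes of 1.52 and 4.11, and 6 of 7 were lower in SIRMu-1 than in rMC-1. E2f7, a repressor that shuts E2F targets down after G1/S, had 8.96, 1.92, 7.18, 11.1 and 11.4 CPM in the SIRMu-1 libraries, 54.6, 69.6 and 61.02 CPM in rMC-1 and 0.670, 0.711, 0.268 and 0.308 CPM in the primary cultures. It was under 1 CPM in each primary culture, on 49 counts in all, and its log2 fold change was 4.02 ± 0.52 in SIRMu-1 (edgeR adjusted p = 0.000117) and 6.95 ± 0.58 in rMC-1 (edgeR adjusted p = 1.2e-06), the largest of the 52 in both lines. Mybl2, which links the G1/S and mitotic programmes, had 45.95, 8.34, 35.8, 48.9 and 50.3 CPM in the SIRMu-1 libraries, 251, 221 and 271 CPM in rMC-1 and 4.30, 1.61, 2.64 and 1.59 CPM in the primary cultures. The log2 fold change of this gene was 3.90 ± 0.51 in SIRMu-1 and 6.61 ± 0.59 in rMC-1. Atad2, a chromatin factor and E2F cofactor, had 69.03, 23.9, 49.8, 76.3 and 91.1 CPM in the SIRMu-1 libraries, 431, 509.8 and 506 CPM in rMC-1 and 19.4, 25.4, 25 and 16.5 CPM in the primary cultures. SIRMu-1 replicate 2 lay inside the primary range, and the log2 fold change was 1.52 ± 0.32 in SIRMu-1 and 4.48 ± 0.38 in rMC-1.

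Ccne2, a cyclin E and partner of Cdk2 at G1/S, had 28.2, 8.12, 22.6, 28.1 and 21.4 CPM in the SIRMu-1 libraries, 92.3, 90.9 and 103 CPM in rMC-1 and 5.21, 5.16, 6.75 and 4.89 CPM in the primary cultures. Its groups did not overlap, with log2 fold changes of 1.98 ± 0.30 in SIRMu-1 and 4.11 ± 0.35 in rMC-1. Ccne1, the other cyclin E, had 20.7, 12.4, 20.2, 28.1 and 35.3 CPM in the SIRMu-1 libraries, 35.4, 17.6 and 23.4 CPM in rMC-1 and 15.1, 9.43, 17.7 and 11.1 CPM in the primary cultures. All 3 groups overlapped, and its log2 fold change was 0.81 ± 0.31 in SIRMu-1 (edgeR adjusted p = 0.0509) and 0.93 ± 0.35 in rMC-1 (edgeR adjusted p = 0.0294), and -0.12 ± 0.33 in SIRMu-1 over rMC-1 (edgeR adjusted p = 0.762). The rMC-1 call of Ccne1 was lost without primary replicate 2 (0.79) or 4 (0.85) or rMC-1 replicate 1 (0.69). Its SIRMu-1 value passed in DESeq2 (0.78), with library totals (0.87), with no filter on low counts (0.83) and without primary replicate 3 (0.97), rMC-1 replicate 1 (0.80) or SIRMu-1 replicate 2 (0.97). A p that misses the threshold does not show that Ccne1 was alike in the groups.

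Slbp, which binds the stem-loop of histone mRNAs, had 55.4, 32.9, 47.2, 52.3 and 56.4 CPM in the SIRMu-1 libraries, 196, 251 and 246 CPM in rMC-1 and 42.4, 40.1, 43.4 and 47.7 CPM in the primary cultures. SIRMu-1 and primary cultures overlapped and rMC-1 stood above both. Its log2 fold change was 0.17 ± 0.15 in SIRMu-1 (edgeR adjusted p = 0.382) and 2.41 ± 0.17 in rMC-1 (edgeR adjusted p = 4.4e-07). Without SIRMu-1 replicate 2 the SIRMu-1 value was 0.28 and past the test. Cdc25a, the phosphatase that activates Cdk2, had log2 fold changes of 0.77 ± 0.12 in SIRMu-1 and 1.74 ± 0.14 in rMC-1. Hells, a chromatin remodeller, had 1 count over the SIRMu-1 libraries, 26 over the rMC-1 libraries and 1 over the primary cultures, and was too low to test.

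Of 16 other genes of the E2F and RB network, 14 were tested, and 8 were higher and 2 lower in SIRMu-1, with 11 higher and 1 lower in rMC-1. Ccna2, the cyclin of S phase, Uhrf1, which keeps DNA methylation through replication, and Fbxo5, an inhibitor of the anaphase-promoting complex, led with 3.81 ± 0.49, 3.72 ± 0.46 and 3.36 ± 0.39 in SIRMu-1 and 6.01 ± 0.56, 6.12 ± 0.53 and 4.91 ± 0.43 in rMC-1. Rbl2, the RB relative most abundant in resting cells, had 32.2, 42.4, 31.7, 29.2 and 42.97 CPM in the SIRMu-1 libraries, 34.7, 40.8 and 33.02 CPM in rMC-1 and 59.5, 97.7, 66.7 and 53.3 CPM in the primary cultures. Both lines lay below every primary culture, with log2 fold changes of -0.96 ± 0.18 in SIRMu-1 (edgeR adjusted p = 0.00143) and -0.94 ± 0.21 in rMC-1 (edgeR adjusted p = 0.00201). Tfdp2, a DP partner of E2F factors, was -1.19 ± 0.28 in SIRMu-1 and 1.68 ± 0.32 in rMC-1, called in opposite directions. Rb1 and the repressor E2f6 passed in neither, with Rb1 at -0.10 ± 0.28 in SIRMu-1 and 0.18 ± 0.32 in rMC-1 and E2f6 at -0.42 ± 0.23 in SIRMu-1 and -0.31 ± 0.26 in rMC-1.

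Genes of mitosis, the next stage of the cycle, showed the same order of groups. All 19 tested of 20 were higher in each line than in primary cultures, with median log2 fold changes of 3.42 in SIRMu-1 and 5.18 in rMC-1, and 18 of 19 were lower in SIRMu-1 than in rMC-1. Cenpf was not past the test between the lines, at -0.89 ± 0.44.

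The 5 SIRMu-1 cultures were the least alike in these genes by the ratio of highest to lowest library, in which replicate 2 was mostly the lowest. The highest SIRMu-1 library exceeded the lowest by a median of 3.27-fold over the 52 genes, against 1.12-fold in rMC-1 and 1.59-fold in primary cultures. Such a ratio tends to grow with the number of libraries, which was 5, 3 and 4 in that order. Replicate 2, grown without the drugs at passage 11, was the lowest of the 5 in 51 of 52 genes, at a median of 48.2% of the next lowest library. How often replicate 2 was the lowest over all tested genes was not counted. Its low place is therefore not shown to be particular to these genes. Mcm5 was lowest of all on this measure, at 22.4%, followed by Mybl2 at 23.3% and Mcm10, a factor of helicase activation, at 23.3%. In 9 genes replicate 2 lay under the highest primary culture. Timeless and Tipin, at 96.3% and 98.5%, were nearest to the next lowest library, and Rrm1 stood at 110.3%. Replicates 3 and 4, also at passage 11, had medians of 20.4 and 28.1 CPM against 11.4 CPM in replicate 2. The mitotic median was 11.6 CPM in replicate 2 and 42.8 to 65.1 CPM in the other 4, while its summed housekeeping level of 2479.6 CPM was the lowest of the 5, against 2545 to 2942 CPM. Its 36730443 reads in genes were the most of the line. Without replicate 2, 52 of 52 genes were called higher in SIRMu-1 than in primary cultures, at a median of 2.17 on the log2 scale, and the median in SIRMu-1 over rMC-1 was -2.12. The part of the culture's state in this difference was not tested.

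Gentamicin with amphotericin B made no difference in these genes that the test could detect. Over the 2 SIRMu-1 cultures with the drugs and the 3 without, 0 of the 52 genes were called, where 0 of all 11321 tested genes (0.0%) were called by edgeR, and 433 of all genes but 0 of the 52 had an unadjusted p under 0.05. DESeq2 called 4 of 11636 genes, limma on the authors' log2 CPM called 0 genes, and neither called any of the 52. The log2 differences of the 52 ran from -0.15 to 0.53 with a median of 0.22, and 46 were above 0. Without SIRMu-1 replicate 2, a culture without the drugs, they ran from -0.46 to 0.19 with a median of -0.10. Mcm6 had 87.5, 23.1, 68.7, 94.5 and 129 CPM in SIRMu-1 replicates 1 to 5, and its drug difference of 0.53 ± 0.46 was the largest (edgeR adjusted p = 0.977), followed by Ccne1 at 0.44 ± 0.41 and Dbf4 at 0.39 ± 0.48. Without replicate 2 these were 0.12 for Mcm6, 0.19 for Ccne1 and -0.04 for Dbf4, and without replicate 5 they were -0.0038, -0.02 and 0.06. Among the 3 cultures at passage 11, the median of replicate 3, with the drugs, was 20.4 CPM, between the 11.4 and 28.1 CPM of replicates 2 and 4, without them. Replicates 1, 2 and 3 share a file-name code and replicates 4 and 5 share another, and what the code stands for is not stated. Replicates 4 and 5 were the highest of the line in 13 and 30 of the 52 genes, and replicate 1 in 9. The part of the code in the spread of SIRMu-1 was not tested. Passage 20 was read only with the drugs and passage 6 only without them, and a fit with passage as a term was not run.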

How the data were processed

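RNA was measured in 12 libraries of polyadenylated RNA, prepared with a KAPA stranded kit and read on a NextSeq500, per the labels' protocols. The submitters' processing notes name genome build rn6 and the tools STAR 2.5.3a, cutadapt 1.8.1 and edgeR 3.18.1, without roles; how strand was counted is not given there. The authors deposited whole-number read counts per gene, not normalized, and a table of log2 CPM. Rows that name no gene held 37.0% to 44.2% of reads and entered neither library sizes nor tests. Samples were grouped by their labels, which call replicates biological and do not tie them to animals, so p-values cover only the spread among these cultures, which may be technical.

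Counts were filtered with edgeR's expression filter, scaled by TMM factors and fitted in edgeR 4.0.16 (R 4.3.3) with a quasi-likelihood model of 3 group means (9 residual degrees of freedom), or of 4 means for the drug split (8 residual degrees of freedom). Fold changes are log2 ± standard error, levels CPM on the TMM scale, and calls edgeR adjusted p under 0.05. The fit was tested on data simulated for SIRMu-1 over primary cultures. It recovered 51 of 100 genes changed 2-fold and 84 of 100 changed 4-fold, and called 3 of 10936 unchanged genes. The members, their roles, the lists and the promoter words were chosen with earlier results of these data known. Values in every library are given for the 3 genes of each role (2 for nucleotide genes) with the largest and the 1 with the smallest log2 fold change in each line, for genes not called against primary cultures and for the 3 largest drug differences. Rrm1 was added after its values were seen, as were the values singled out in the text on replicate 2 and on Gmnn, Timeless and Tipin outside that rule. Genes of the other pathway lists are named where they lead their list, move against it or are not called in a line; values in every library for Orc3, Pold4, Rrm2b and Rbl2 were added after they were seen. Alternatives were DESeq2 1.42.0, limma 3.58.1 on the deposited log2 CPM, other scalings, filters, minimum fold, samples, a replicate block, summed libraries and leaving out each library. RefSeq promoters (GRCr8) were matched by symbol, and rn6 coordinates were not used.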

Additional observations from a re-analysis of the deposited data

Results flagged for a closer look

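In a test for a single distant library within each group of 4 or 5, run on the 52 tested genes in SIRMu-1 and in primary cultures (104 groups), 1 group stood out. Ccne2 in primary replicate 3 had 6.75 CPM, and the other 3 primary cultures had 4.89 to 5.21 CPM, so that the gap took 0.831 of the range, just past the limit of Dixon's test. Chance alone gives about 1 such group in 20. SIRMu-1 replicate 2, the lowest library in 51 of 52 genes, was flagged by this test in 0 of them. The test used CPM, not log2 CPM, and a low library stands out less on that scale. The flag for Ccne2 and the 0 for replicate 2 are therefore given for that scale only, and the 0 does not show that replicate 2 was like the others.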

How the results depend on the processing

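The counts of replication genes called stayed within 1.5 times of those reported in every alternative run. They ranged from 48 to 52 (SIRMu-1 over primary), 51 to 52 (rMC-1 over primary) and 50 to 51 (SIRMu-1 over rMC-1) when 1 library was left out, and with a 2-fold minimum they were 35, 51 and 44. Over all genes, a 2-fold minimum left 1519, 3880 and 2786 calls instead of 5220, 8017 and 7157, as its stricter null would. Summing libraries of 1 file-name code left 3173 calls in SIRMu-1 over primary on 7 samples, and 47 of 53 tested replication genes. Leaving out 1 library gave 4572 to 5339, 7423 to 8201 and 6249 to 7287 calls, and 0 to 2 for the drugs (2 without SIRMu-1 replicate 3), where DESeq2 gave 4. With the replicate number as a block, 49, 52 and 50 replication genes were called (4973, 8019 and 7157 of all genes). The numbers do not pair the libraries, whose same-number deviations correlated at -0.06 to 0.10 over 10 pairs, and the block ended the SIRMu-1 call of Gins3 (0.77). Values for single genes were followed for all 52 in the 3 group comparisons, but for the drugs only for the 3 with the largest difference. Among these values, 6 changed sign, 46 lost a call and 11 gained one. The drug differences of the other genes are not in that count. The median drug difference of the 52, 0.22 with all libraries, was -0.10 without SIRMu-1 replicate 2 and -0.08 without replicate 5. Ccne1 in SIRMu-1 over rMC-1 was 0.10 without rMC-1 replicate 1 and 0.04 without SIRMu-1 replicate 2, and -0.43 to 0.10 over all left-out libraries. The drug difference of Ccne1 was -0.19 under the block and -0.024 to 0.79 over left-out libraries (lowest without SIRMu-1 replicate 5), that of Mcm6 -0.0038 to 0.92 (lowest without replicate 5) and that of Dbf4 -0.040 to 0.73 (lowest without replicate 2). None of these was past the test, and the cause was not tested. Gins3 lost its SIRMu-1 call in 15 of 22 alternatives and Fen1 in 7 of 22. Low counts limit what can be said of Hells and of the primary levels of E2f7, Orc1, Pole2, Gins1 and Dscc1. Those primary levels rest on 49 to 79 counts each. Why Hells had so few counts was not tested.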
